A study of Mus musculus with 12 samples.

Results

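The 9 genes described here encode the cyclins and the cyclin-dependent kinase (CDK) inhibitors that act in the G1 phase of the cell cycle: the D-type cyclins Ccnd1, Ccnd2 and Ccnd3, the E-type cyclins Ccne1 and Ccne2, the Cip/Kip inhibitor Cdkn1b, and the INK4 inhibitors Cdkn2a, Cdkn2b and Cdkn2c. They were listed by name, with earlier results of these data known. They are 9 of the 55401 genes counted, and 9 of the 17468 genes with enough reads to be tested. The RNA came from mouse totipotent potential stem (TPS) cells and from extended pluripotent stem (EPS) cells, with 3 cell lines of each kind and 2 technical replicate libraries per line, 12 libraries in all. TPS cells were maintained in a medium that holds the histone deacetylase inhibitor VPA, the GSK3 inhibitor CHIR-99021, the DOT1L inhibitor EPZ004777 and the retinoic acid receptor gamma agonist CD1530. EPS cells were kept in LCDM medium. The labels place both kinds of cell on feeder cells, which the study's methods describe as inactivated mouse embryonic fibroblasts, so fibroblast RNA can be present in every library. The labels give neither the strain nor the origin of each line. A difference in strain or origin between the groups, if there is one, cannot be told apart from that in cell kind and medium. The p-values below weigh the difference between the groups against the spread between these lines.

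In G1, D-type cyclins bind CDK4 and CDK6, and E-type cyclins bind CDK2. Both kinds of complex phosphorylate the retinoblastoma protein and its relatives, which releases E2F factors and lets genes of DNA replication be transcribed. INK4 proteins bind CDK4 and CDK6 and block them, whereas p27, the product of Cdkn1b, inhibits CDK2 complexes and also binds cyclin D complexes. Mouse pluripotent stem cells are known for a short G1 phase with high CDK2 activity and low levels of many CDK inhibitors. A large part of the control of cyclins and of p27 is by protein turnover, which RNA does not show.

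The libraries held 14652746 to 21821707 counts in TPS cells and 13676051 to 20077288 in EPS cells, and after adding up both technical replicates the totals were 29877215 to 38466294 counts per TPS line and 33591638 to 35811697 per EPS line. Levels are given as CPM, the count relative to the size of the library after scaling by the trimmed mean of M values. The labels were checked against markers. All 5 markers of the 2-cell embryo rose in TPS cells, with a summed level of 166 to 214 CPM against 0 to 0.0979 CPM in EPS lines. Pluripotency genes were present in both, at a summed level of 2493 to 2766 CPM in TPS lines and 4383 to 5796 CPM in EPS lines, and 3 of 6 fell in TPS cells. Markers of fibroblasts also moved with the groups: 9 of 16 rose, none fell, and their summed level was 5569 to 10194 CPM in TPS lines and 2537 to 4510 CPM in EPS lines. Of 7 trophectoderm markers tested, 2 rose (Cdx2 and Gata3) and none fell, and of 6 primitive endoderm markers 3 rose (Gata6, Sox17 and Dab2) and none fell, at a summed level of 43.0 to 62.9 CPM in TPS lines and 15.9 to 22.1 CPM in EPS lines. Dab2 was the largest part of the endoderm sum in TPS lines 1, 2 and 3, at 51.4, 18.9 and 31.1 CPM. This is the order of their summed fibroblast markers. Gata6 (4.72, 11.8 and 9.37 CPM) and Sox17 (1.65, 3.86 and 1.87 CPM) were lowest in TPS line 1. The trophectoderm genes did not share one pattern among TPS lines. Krt8, Krt18 and Hand1, picked after their values were seen, summed to 454 CPM in TPS line 2, 13.9 and 61.0 CPM in the other TPS lines and 12.8 to 28.5 CPM in EPS lines, whereas among the TPS lines Cdx2, Eomes and Tfap2c were highest in line 3. Beside these marker counts, 14.4% of all genes tested rose and 7.34% fell, by the edgeR test described below. The part of any of these markers in the differences below was not tested.

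Between TPS and EPS cells, 5 of the 9 genes rose (Ccnd2, Ccne1, Cdkn2a, Cdkn2b and Cdkn2c), 1 fell (Cdkn1b), and 3 did not pass the test (Ccnd1, Ccnd3 and Ccne2). The test was edgeR's quasi-likelihood test on the line sums with a Benjamini-Hochberg adjusted p under 0.05 over all genes tested. Over all 17468 genes, 14.4% rose and 7.34% fell. The median log2 fold change of the 9 genes was 0.67, beside -0.00 for all genes tested. In 8 of the 9, all but Ccnd1, the 3 TPS lines did not overlap the 3 EPS lines, 7 being higher and 1 lower in TPS cells. Such separation was found in 42.7% of all genes tested, with 23.6% higher and 19.1% lower. DESeq2 called 5 of the 9 higher and 1 lower, with Ccne2 in place of Ccne1, beside 16% and 7.71% of all genes it tested (23.7% in either direction). With 3 lines against 3, an exact two-sided permutation test of a single gene cannot give a p below 0.1. In bulk RNA, a change in the share of cells of a type and a change in RNA per cell cannot be told apart.

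**Figure D1:**
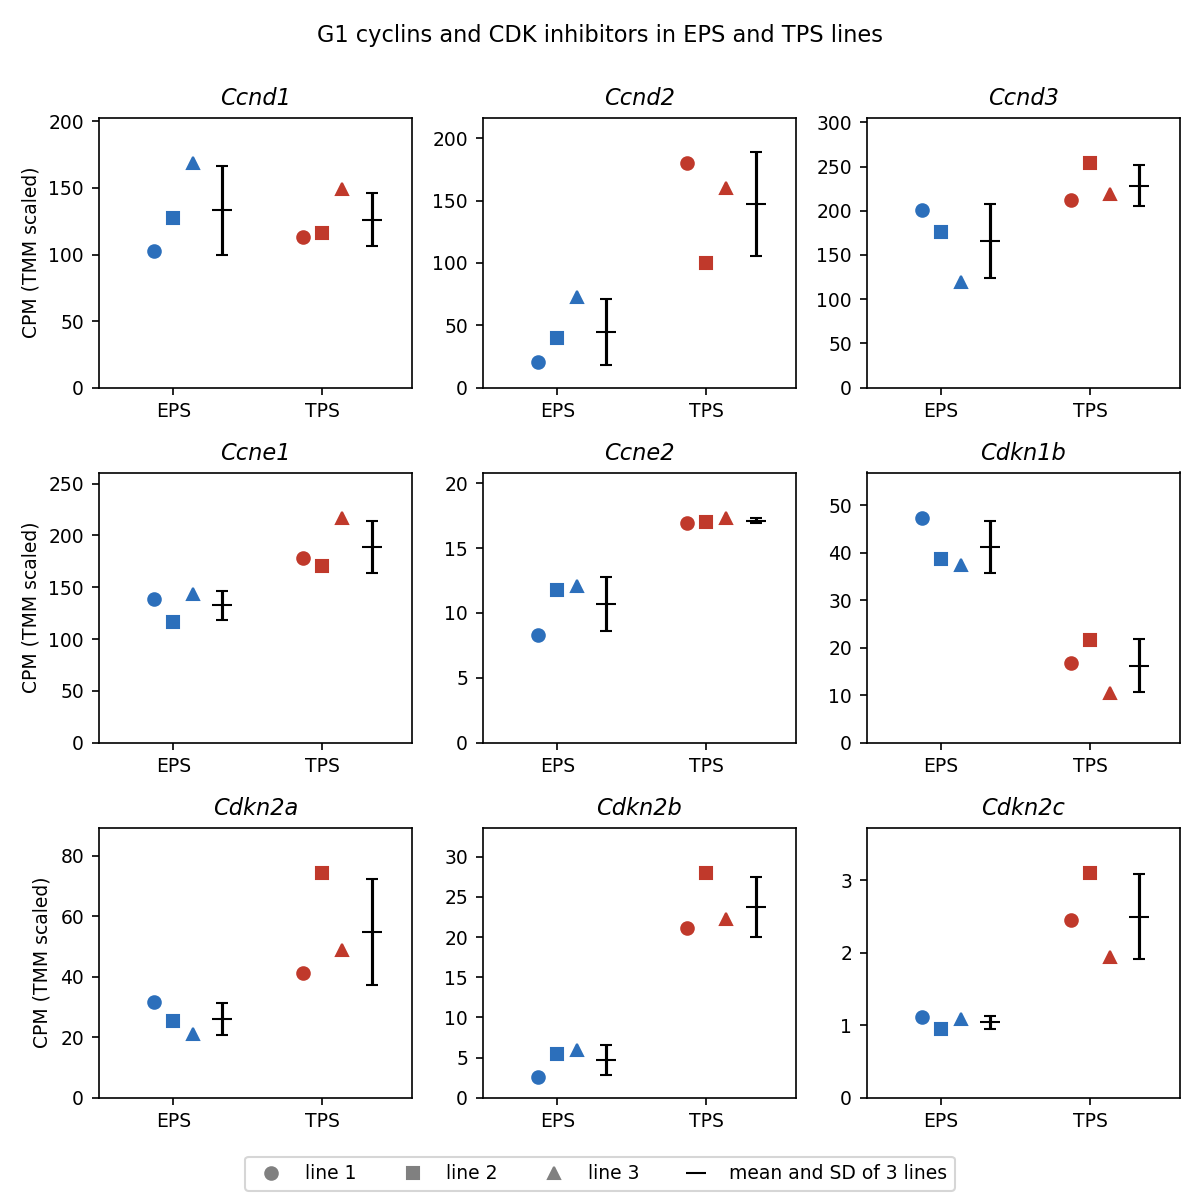
Level of each of the 9 genes in CPM, one panel per gene, with each point a cell line (sum of 2 technical replicates) and bars for the mean and SD of 3 lines per group. The TPS and EPS points overlap in Ccnd1 alone, and Cdkn1b is the single gene with all TPS lines below all EPS lines.

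Of the D-type cyclins, which couple growth signals to CDK4 and CDK6, Ccnd2 rose in TPS cells. Ccnd2 (ENSMUSG00000000184.12, GRCm38 chr6:127125162-127152193, minus strand) stood at 181, 100 and 160 CPM in TPS lines 1, 2 and 3 and at 20.2, 40.2 and 72.6 CPM in EPS lines 1, 2 and 3. The lowest TPS line was above the highest EPS line, and the EPS lines differed widely among themselves. The means were 147 ± 41.8 CPM and 44.3 ± 26.4 CPM (SD, n = 3 lines each), a 3.31-fold difference (edgeR, log2 fold change 1.73, SE 0.441, adjusted p = 0.0304). The call was lost when TPS line 1 (adjusted p = 0.0821), TPS line 3 (0.0798), EPS line 1 (0.05004) or EPS line 2 (0.0960) was left out of the edgeR fit, with log2 fold changes of 1.35 to 2.27 over the 6 fits without one line. Within each group, the lines had the same order in Ccnd2 as in fibroblast markers: the summed level of 15 fibroblast genes, without Fn1, was 6276, 3489 and 3645 CPM in TPS lines and 329, 1311 and 1397 CPM in EPS lines. Fn1, a matrix protein that many cell types make, was taken out of this sum after its values were seen. With Fn1, the order no longer held among EPS lines, whose sums were 2537, 4510 and 3966 CPM.

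Ccnd1 (ENSMUSG00000070348.5, chr7:144929931-144939925, minus strand) did not pass the test. Its levels were 113, 116 and 149 CPM in TPS lines and 103, 127 and 169 CPM in EPS lines. The groups overlapped fully, with EPS line 3 the highest and EPS line 1 the lowest of all 6 lines. The log2 fold change was -0.08 (95% interval -0.56 to 0.40, edgeR adjusted p = 0.818). Its sign turned with library size alone as the scale (0.062) or without EPS line 3 (0.12).

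Ccnd3 (ENSMUSG00000034165.16, chr17:47505051-47599691, plus strand) stood at 212, 255 and 219 CPM in TPS lines and at 201, 177 and 119 CPM in EPS lines. The groups did not overlap, but TPS line 1 and EPS line 1 lay close together. The means of 228 ± 22.9 and 166 ± 42.0 CPM gave a log2 fold change of 0.46 (95% interval -0.01 to 0.93), which did not pass the edgeR test (adjusted p = 0.139).

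Per kilobase of annotated exon, Ccnd2 made up 22.7 ± 5.98% of the D-type cyclin RNA in TPS lines (16.6 to 28.5%) and 8.79 ± 4.48% in EPS lines (4.57 to 13.5%). The share of Ccnd1 was 39.0 ± 3.73% in TPS lines and 53.96 ± 8.18% in EPS lines, and that of Ccnd3 was 38.3 ± 6.01% and 37.2 ± 12.6%. The summed D-type level was 68.4 ± 4.79 CPM per kb in TPS lines and 51.9 ± 5.15 CPM per kb in EPS lines. These shares depend on the length assigned to each gene, since the annotation gives Ccnd3 21 transcripts and a total exon length of 8.775 kb against 2.113 kb for its longest protein-coding transcript. With the longest protein-coding transcript as the length of all 3 genes, a choice made after seeing the data, Ccnd3 came to 65.5% of D-type RNA in TPS lines and 64.3% in EPS lines, Ccnd1 to 20.4% and 29.8%, and Ccnd2 to 14.1% and 5.93%. Ccnd2 took the smallest share in both groups under either length.

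**Figure D2:**
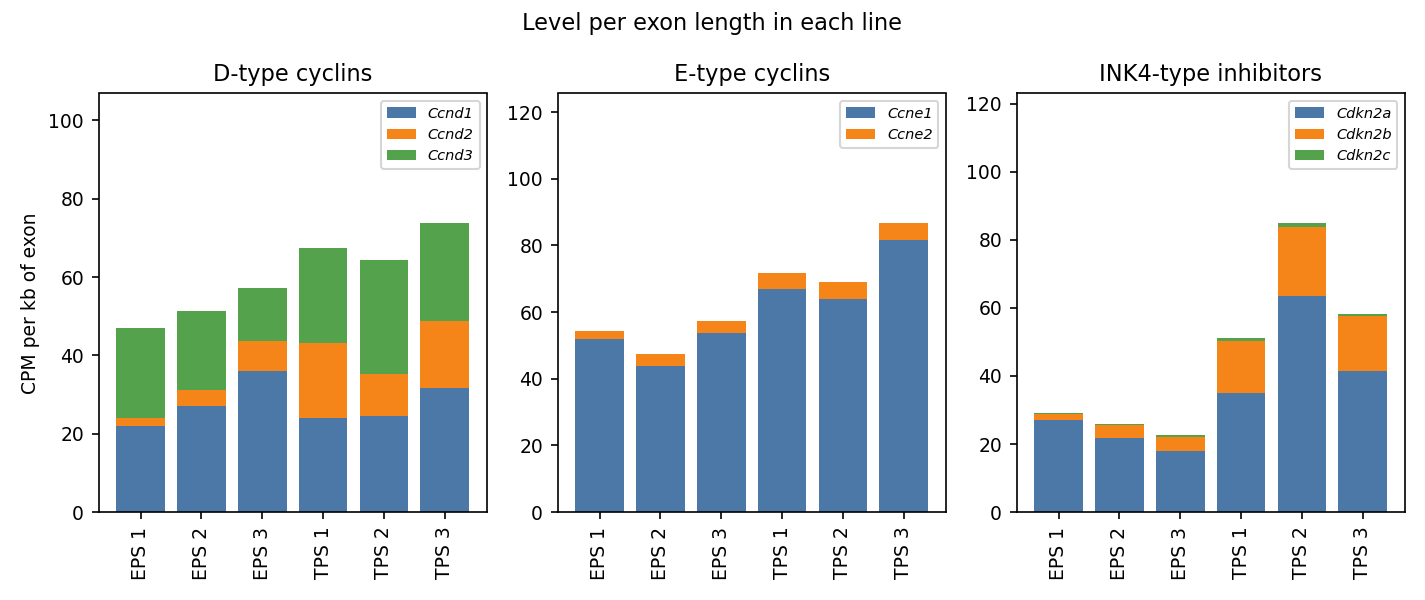
Summed level of the D-type cyclins, E-type cyclins and INK4 inhibitors in CPM per kb of annotated exon, stacked by gene, for each of the 6 lines. The INK4 stacks are the most unequal between groups, at 64.7 ± 17.8 CPM per kb in TPS lines and 25.9 ± 3.29 in EPS lines.

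Both E-type cyclins, which activate CDK2 late in G1, had all TPS lines above all EPS lines, and Ccne1 passed the test. Ccne1 (ENSMUSG00000002068.16, chr7:38097984-38107534, minus strand) stood at 178, 170.5 and 217 CPM in TPS lines and at 138, 117 and 143 CPM in EPS lines. The means were 189 ± 25.2 and 133 ± 14.0 CPM, a 1.42-fold difference (edgeR, log2 fold change 0.51, SE 0.148, adjusted p = 0.0470). This call lay close to the threshold: it was lost in each of the 6 edgeR fits without one line, TPS or EPS, where the log2 fold change was 0.39 to 0.57 and the adjusted p 0.0662 to 0.157, and with DESeq2 (adjusted p = 0.0643).

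Ccne2 (ENSMUSG00000028212.16, chr4:11191351-11204779, plus strand) was nearly level among TPS lines, at 17.0, 17.0 and 17.3 CPM, and stood at 8.32, 11.8 and 12.0 CPM in EPS lines. The log2 fold change of 0.67 (95% interval 0.19 to 1.16) missed the threshold in edgeR (adjusted p = 0.0568) and passed it in DESeq2 (adjusted p = 0.0300). Ccne1 provided 93.5 ± 0.702% of E-type cyclin RNA per kb in TPS lines and 94.2 ± 1.39% in EPS lines, so the ranges of its share overlapped while the summed E-type level was 75.7 ± 9.52 CPM per kb in TPS lines and 53.0 ± 5.12 CPM per kb in EPS lines.

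Cdkn1b, which encodes p27, was the one gene of the 9 that fell in TPS cells. Cdkn1b (ENSMUSG00000003031.14, chr6:134920401-134925513, plus strand) stood at 16.7, 21.6 and 10.4 CPM in TPS lines and at 47.4, 38.7 and 37.4 CPM in EPS lines. Every TPS line was well below the lowest EPS line. The means of 16.2 ± 5.61 and 41.2 ± 5.46 CPM made Cdkn1b 2.53-fold lower in TPS cells (edgeR, log2 fold change -1.34, SE 0.271, adjusted p = 0.0140). The call was kept in all 6 edgeR fits without one line, with log2 fold changes of -1.61 to -1.11 and an adjusted p of at most 0.0405. Without TPS line 1 and EPS line 1 together, the lines with the most and the least fibroblast marker RNA, the log2 fold change was -1.27 and the adjusted p 0.0846.

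The 3 INK4 genes Cdkn2a, Cdkn2b and Cdkn2c rose in TPS cells, and the other INK4 gene, Cdkn2d, did not pass the test. Cdkn2b, which encodes p15INK4B, had the largest fold change of the 9 genes. Cdkn2b (ENSMUSG00000073802.5, chr4:89306299-89311039, minus strand) stood at 21.1, 28.0 and 22.2 CPM in TPS lines and at 2.55, 5.44 and 5.98 CPM in EPS lines. No EPS line came near the TPS lines, and each library held at least 33 reads of the gene. The means of 23.8 ± 3.72 and 4.66 ± 1.85 CPM differed 5.10-fold (edgeR, log2 fold change 2.35, SE 0.340, adjusted p = 0.00496). Cdkn2b was called in all 15 alternative fits, including all 6 edgeR fits without one line (log2 fold change 2.03 to 2.56, adjusted p at most 0.0217).

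Cdkn2a lies beside Cdkn2b and encodes 2 unrelated proteins, p16INK4A, a CDK4 and CDK6 inhibitor, and p19ARF, which stabilises p53, from separate first exons. The deposited counts are per gene and pool its 2 annotated transcripts, so the 2 products cannot be told apart. Cdkn2a (ENSMUSG00000044303.6, chr4:89274471-89294653, minus strand) stood at 41.1, 74.4 and 48.7 CPM in TPS lines and at 31.6, 25.5 and 20.98 CPM in EPS lines. The groups did not overlap, and TPS line 2 was the highest. The means of 54.7 ± 17.5 and 26.0 ± 5.32 CPM differed 2.105-fold (edgeR, log2 fold change 1.07, SE 0.258, adjusted p = 0.0248). The edgeR call was lost without TPS line 2 (log2 fold change 0.78, adjusted p = 0.0560), TPS line 3 (1.148, adjusted p = 0.0530), EPS line 2 (1.04, adjusted p = 0.0730) or EPS line 3 (0.93, adjusted p = 0.0688).

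Cdkn2c, which encodes p18INK4C, was the least abundant of the 9. Cdkn2c (ENSMUSG00000028551.14, chr4:109660876-109667189, minus strand) stood at 2.45, 3.11 and 1.94 CPM in TPS lines and at 1.11, 0.942 and 1.08 CPM in EPS lines, from 32 to 120 reads per line. The means of 2.50 ± 0.587 and 1.04 ± 0.0900 CPM differed 2.39-fold (edgeR, log2 fold change 1.26, SE 0.344, adjusted p = 0.0378). As for Ccne1, the call was lost in each of the 6 edgeR fits without one line, TPS or EPS (log2 fold change 1.06 to 1.41, adjusted p 0.0666 to 0.108).

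The promoters of the INK4 locus and of Cdkn1b are shown because Cdkn2b and Cdkn2a, neighbours on chromosome 4, moved in one direction and Cdkn1b in the other. Each runs from 250 bases before to 50 bases after a start site in RefSeq (GRCm38.p6) and is written 5′ to 3′ on the strand of the gene. The Sp1 letters GGGCGG, or their reverse complement CCGCCC, are in capitals. The start of Cdkn2b is 16413 bases from the upstream start of Cdkn2a, the one used for p19ARF, and the 2 starts of Cdkn2a are 12427 bases apart.
Cdkn2b, chr4:89310983-89311282, minus strand: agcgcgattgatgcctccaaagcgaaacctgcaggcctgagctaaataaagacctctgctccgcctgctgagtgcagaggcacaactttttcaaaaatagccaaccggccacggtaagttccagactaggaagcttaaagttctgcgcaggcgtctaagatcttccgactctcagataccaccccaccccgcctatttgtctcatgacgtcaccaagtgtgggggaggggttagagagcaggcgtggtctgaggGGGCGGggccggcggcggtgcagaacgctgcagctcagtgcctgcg
Cdkn2a upstream start, chr4:89294570-89294869, minus strand: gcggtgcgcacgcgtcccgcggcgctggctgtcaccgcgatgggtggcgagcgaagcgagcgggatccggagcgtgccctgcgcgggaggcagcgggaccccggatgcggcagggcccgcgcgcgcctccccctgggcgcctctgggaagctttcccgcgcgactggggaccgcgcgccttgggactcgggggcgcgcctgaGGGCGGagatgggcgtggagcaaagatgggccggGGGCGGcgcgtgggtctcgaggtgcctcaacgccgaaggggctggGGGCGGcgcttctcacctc
Cdkn2a downstream start, chr4:89282143-89282442, minus strand: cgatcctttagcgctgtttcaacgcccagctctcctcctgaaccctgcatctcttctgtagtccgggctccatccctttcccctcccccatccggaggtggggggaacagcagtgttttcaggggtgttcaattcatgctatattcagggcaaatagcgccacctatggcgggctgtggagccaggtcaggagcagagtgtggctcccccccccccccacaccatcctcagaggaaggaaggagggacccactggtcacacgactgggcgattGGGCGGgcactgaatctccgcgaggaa
Cdkn1b, chr6:134920151-134920450, plus strand: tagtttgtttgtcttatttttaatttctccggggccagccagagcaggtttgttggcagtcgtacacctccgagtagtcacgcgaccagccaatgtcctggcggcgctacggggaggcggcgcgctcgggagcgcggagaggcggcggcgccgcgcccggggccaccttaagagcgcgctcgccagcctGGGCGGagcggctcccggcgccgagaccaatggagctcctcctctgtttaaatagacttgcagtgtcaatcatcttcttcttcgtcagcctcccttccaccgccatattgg

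The table held promoters for 6 of the 9 genes, 9 promoters in all. Ccnd1, Ccnd2 and Ccne2 were not among them. The Sp1 letters were found on either strand in 8 of the 9, against 35.7% of the 32851 promoters of the same length in the table. These letters are all G or C, and that share was not matched for GC content. The 8 promoters had a GC content of 57.7 to 77.0%, and the one without a match, the downstream Cdkn2c promoter, 44%. Of the promoters printed, the upstream Cdkn2a promoter held 3 matches and a GC content of 77.0%, while the other 3 held 1 match each with a GC content of 57.7 to 62.0%, beside a median of 52.7% over all promoters. The E2F letters TTTCGCGC, TTTGGCGC, TTTCCCGC or TTTGCCGC were found in 1 of the 9, the upstream Cdkn2a promoter, where TTTCCCGC begins at position -99 from the start site. They were found in 2.26% of all promoters. The retinoic acid receptor letters AGGTCA or GGGTCA were found in 3 of the 9, including the downstream Cdkn2a promoter at position -67, and in 27.5% of all promoters. The TCF/LEF letters CTTTGAA or CTTTGAT were in none of the 9 and in 8.65% of all promoters. No matches of different motifs overlapped in these 9 promoters. A match is a description of the letters and was not tested for binding.

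Per kilobase, Cdkn2a made up 71.6 ± 3.17% of the RNA of these 3 INK4 genes in TPS lines and 85.0 ± 6.68% in EPS lines. Cdkn2b took 27.0 ± 2.99% (23.8 to 29.7%) and 13.5 ± 6.53% (6.28 to 19.0%), so that its share did not overlap between the groups. Cdkn2c took 1.46% and 1.52%. The shares carry no test.

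Set side by side per kilobase of annotated exon, the 9 genes in TPS lines ran from Ccne1 (70.8 ± 9.46 CPM per kb) through Cdkn2a (46.7 ± 14.9), Ccnd1 (26.8 ± 4.27), Ccnd3 (26.0 ± 2.61), Cdkn2b (17.1 ± 2.68), Ccnd2 (15.6 ± 4.44), Ccne2 (4.90 ± 0.0594) and Cdkn1b (3.57 ± 1.23) to Cdkn2c (0.930 ± 0.219). Ccnd1 and Ccnd3, and Cdkn2b and Ccnd2, were neighbours that differed by less than their spread between lines. In EPS lines, Ccne1 (49.9 ± 5.27 CPM per kb) was followed by Ccnd1 (28.3 ± 7.10), Cdkn2a (22.2 ± 4.54) and Ccnd3 (18.9 ± 4.79), whose spreads ran into each other. Cdkn1b came next there at 9.04 ± 1.2, above Ccnd2 (4.71 ± 2.81), Cdkn2b (3.35 ± 1.33) and Ccne2 (3.07 ± 0.595), while Cdkn2c was again the lowest (0.389 ± 0.0335). With the length of the longest protein-coding transcript, Ccnd3 (108 ± 10.8 CPM per kb in TPS lines, 78.4 ± 19.9 in EPS lines) and Ccne1 (94.3 ± 12.6 and 66.4 ± 7.01) had the highest means, and their spreads ran into each other.

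Levels of the inhibitors and of Ccnd2 can be read beside the fibroblast markers in lines that differ in both. TPS line 2 had 2.5 times the summed level of the 15 fibroblast genes of EPS line 3 (1.4 times with Fn1). Col1a1 (1740 CPM in TPS line 2 and 378 CPM in EPS line 3) and Col1a2 (817 and 330 CPM) weighed most in this sum. Lower in TPS line 2 were Dcn (42.8 and 118 CPM), Postn (137 and 185), Lum (3.39 and 9.71) and Col6a3 (16.4 and 29.7). The rest of the 15 were higher. TPS line 2 had 4.69 times the Cdkn2b, 3.55 times the Cdkn2a, 1.38 times the Ccnd2 and 0.577 times the Cdkn1b of EPS line 3. Among EPS lines, line 3 had 4.25 times the summed fibroblast level of line 1 (1.56 times with Fn1), together with 2.35 times its Cdkn2b and 3.59 times its Ccnd2, but 0.664 times its Cdkn2a and 0.788 times its Cdkn1b. Between these EPS lines, Ccnd2 and Cdkn2b were higher and Cdkn2a and Cdkn1b lower in the line with more fibroblast RNA. Among TPS lines, line 1 had the most fibroblast RNA (6276 CPM) and the lowest Cdkn2b (21.1 CPM), and line 2 the least (3489 CPM) and the highest Cdkn2b (28.0 CPM). TPS line 2, the line with the most Krt8, Krt18 and Hand1, had the highest Cdkn2a, Cdkn2b, Cdkn2c, Cdkn1b and Ccnd3 and the lowest Ccnd2 and Ccne1 of the TPS lines. A further fit left out TPS line 1 and EPS line 1, a choice made after seeing the data. There edgeR called Cdkn2a and Cdkn2b, and did not call Ccnd2, Ccne1, Cdkn1b or Cdkn2c. The remaining lines still differed in the summed fibroblast level without Fn1, at 3489 and 3645 CPM in TPS lines and 1311 and 1397 CPM in EPS lines. The part of fibroblast RNA in these calls was not tested. The log2 fold changes of Ccne1 (0.56), Cdkn1b (-1.27) and Cdkn2c (1.30) stayed close to those with all 6 lines, and that of Ccnd2 was 1.19. In that fit of fewer lines, 2 of the 9 genes rose and 0 fell, beside 6.86% and 2.39% of all genes tested (9.25% in either direction).

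**Figure D3:**
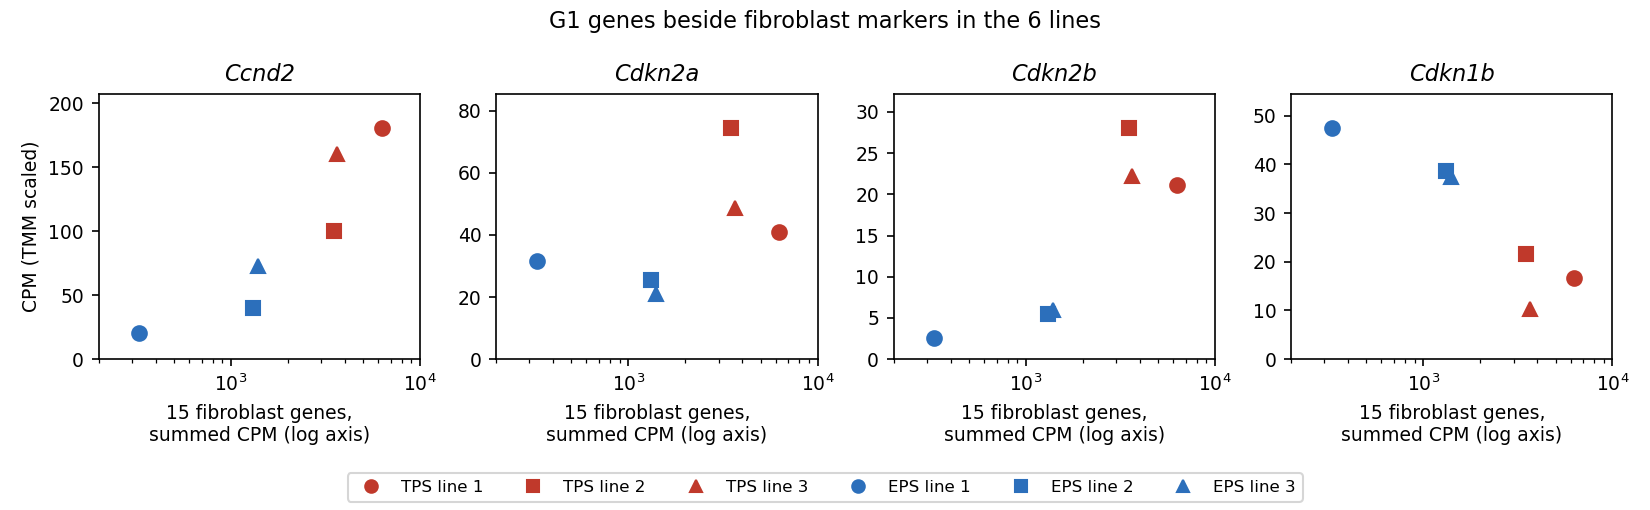
Level of Ccnd2, Cdkn2a, Cdkn2b and Cdkn1b (CPM) against the summed level of 15 fibroblast markers without Fn1 (CPM, log axis), with one point per line. TPS lines lie at 3489 to 6276 CPM of summed fibroblast markers and EPS lines at 329 to 1397 CPM, and the groups do not overlap on either axis in any panel. Taken singly, 11 of all 16 fibroblast markers had no overlap between the groups, beside 42.7% of all genes tested. Dcn, Lum, Postn, Col6a3 and Fn1 overlapped.

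The other G1 control genes were taken from 4 lists of kinases, E2F factors, inhibitors and activators. Of 32 tested, 1 rose, 3 fell and 28 did not pass, and the median log2 fold change was -0.10. Of these, 12.5% were called, beside 21.7% of all genes tested. Cdk2, the kinase partner of E-type cyclins, fell: it stood at 86.3, 85.35 and 82.2 CPM in TPS lines and at 164, 169 and 158 CPM in EPS lines. The spread within each group was small (84.6 ± 2.15 and 164 ± 5.31 CPM), and the log2 fold change was -0.95 (SE 0.11, edgeR adjusted p = 0.00275). Cdk2 was called under each alternative fit, including each edgeR fit without one line (adjusted p at most 0.0149).

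Cdkn1c, which encodes the Cip/Kip inhibitor p57, was the single gene of these 32 that rose. It stood at 6.47, 15.8 and 7.02 CPM in TPS lines and at 2.94, 2.33 and 2.53 CPM in EPS lines (edgeR, log2 fold change 1.91, SE 0.403, adjusted p = 0.0161), and the edgeR call was lost without EPS line 2 (log2 fold change 1.81, adjusted p = 0.0574). TPS line 2 was again the highest. E2f4, an E2F factor that acts mostly in repression, fell from 205 to 143 CPM (log2 fold change -0.52, edgeR adjusted p = 0.0410). Mnat1, a subunit of the CDK-activating kinase, fell from 64.7 to 43.98 CPM (log2 fold change -0.56, edgeR adjusted p = 0.0433). The calls of E2f4 and Mnat1 were lost in each of the 6 edgeR fits without one line, TPS or EPS, with an adjusted p of 0.0594 to 0.120 and 0.0511 to 0.130. Among those that did not pass were the kinases Cdk4 (log2 fold change -0.26) and Cdk6 (-0.53, edgeR adjusted p = 0.0504), the retinoblastoma gene Rb1 (0.73, adjusted p = 0.0857) and the inhibitors Cdkn1a (-0.10) and Cdkn2d (-0.11). The extremes of their lists that did not pass were the highest E2F factor, E2f8 (0.42), the highest turnover gene, Fbxo4 (0.50), and the lowest of the other inhibitors, Cdkn3 (-0.28).

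**Figure D4:**
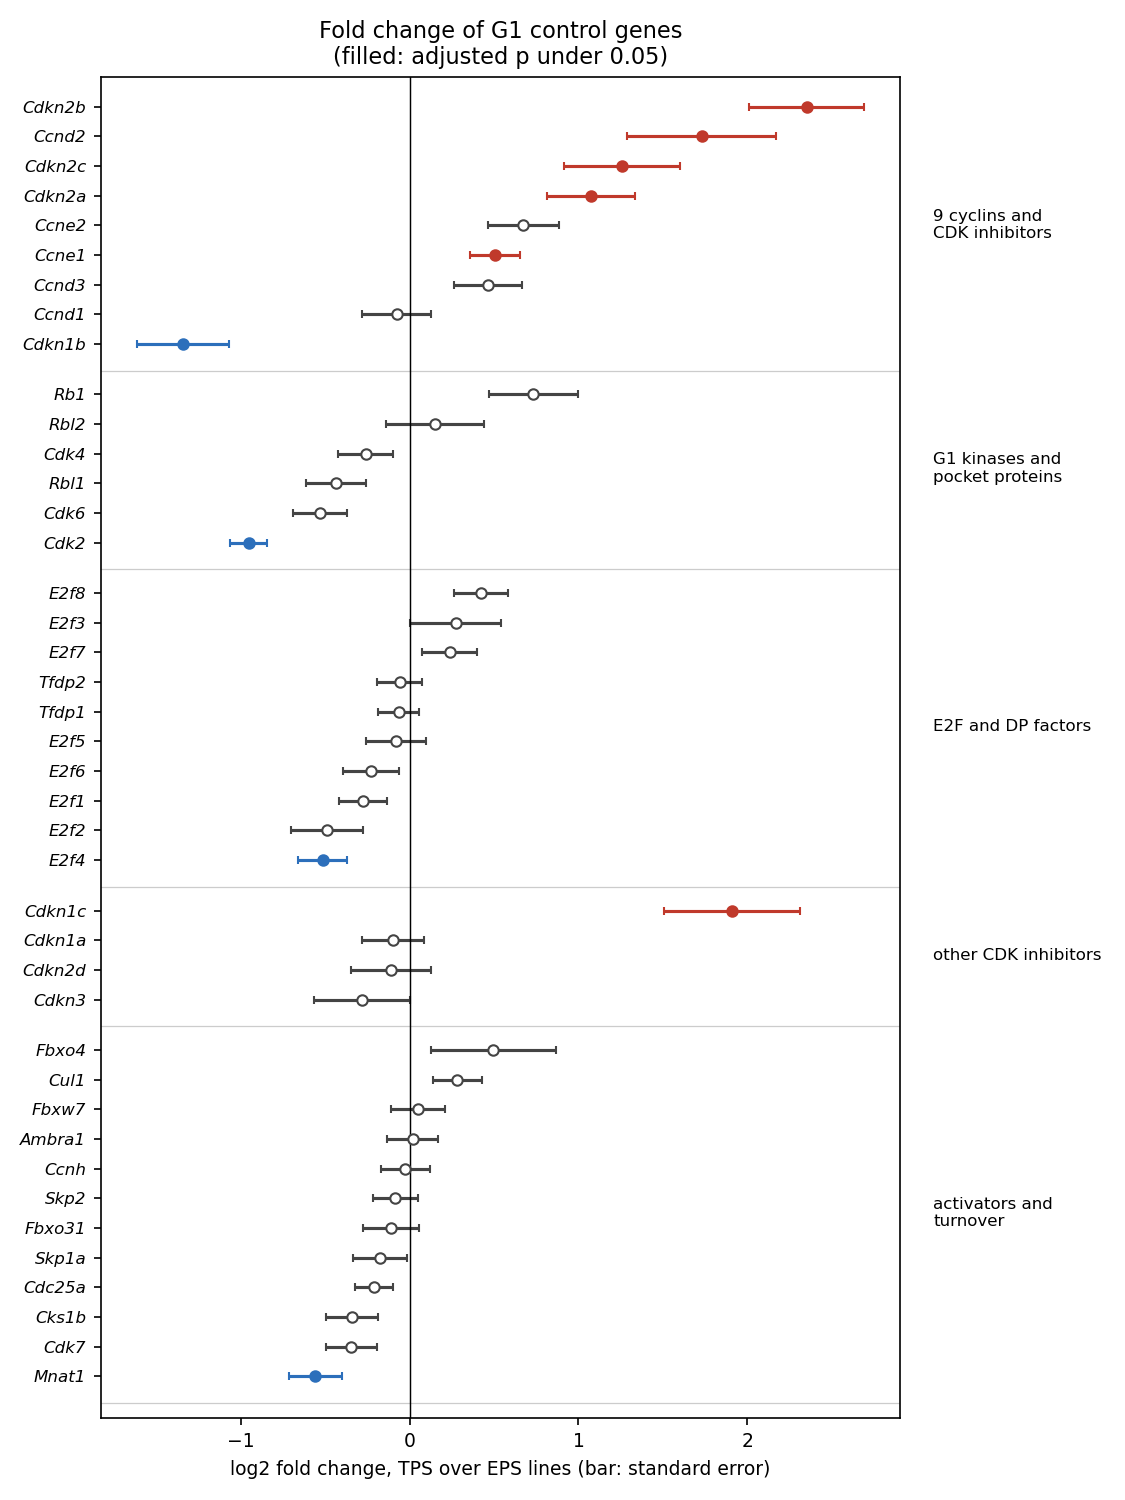
Log2 fold change (TPS over EPS lines, edgeR) of the 9 genes and the 32 other G1 control genes, grouped by list and ordered by value, with bars for the standard error and filled points for an adjusted p under 0.05. Cdkn2b is the highest at 2.35 and Cdkn1b the lowest at -1.34, and most of the other G1 genes are open points.

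By role, 1 of the 6 kinases and pocket proteins fell and none rose, 1 of the 10 E2F and DP factors fell and none rose, 1 of the 4 other CDK inhibitors rose and none fell, and 1 of the 12 genes that activate or turn over cyclins and inhibitors fell and none rose, beside 14.4% of all genes that rose and 7.34% that fell. Of 16 E2F target genes of S phase entry, which include the Mcm helicase genes and Pcna, 0 were called by edgeR and 0 by DESeq2, and 4 had an unadjusted edgeR p under 0.05, all of them lower in TPS cells. The log2 fold changes ran from -0.41 for Cdt1 to 0.24 for Cdc6 with a median of -0.22, and 14 were negative. Over all genes tested, 37.0% had an unadjusted p under 0.05 and 49.8% were positive.

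Of 12 regulators of Cdkn2a and Cdkn2b transcription, 2 rose and 3 fell in TPS cells by edgeR, and DESeq2 called 4 higher and 3 lower, beside 14.4% and 7.34% of all genes by edgeR and 16% and 7.71% by DESeq2. Those that rose were the transcription factor Ets1, from 6.14 to 23.3 CPM (log2 fold change 1.92, edgeR adjusted p = 0.0152), and the Polycomb subunit Cbx8, from 0.612 to 1.94 CPM (1.66, adjusted p = 0.0411). The Polycomb subunits Ezh2 (log2 fold change -0.51, edgeR adjusted p = 0.0253), Eed (-0.71, adjusted p = 0.0301) and Cbx7 (-0.51, adjusted p = 0.0300) fell. The Polycomb subunit Bmi1 stood at 11.3 CPM in TPS lines and 7.31 CPM in EPS lines (log2 fold change 0.63), which passed in DESeq2 (adjusted p = 0.0343) and not in edgeR (adjusted p = 0.0737), as did Id1 (log2 fold change 1.62, adjusted p = 0.0125 in DESeq2 and 0.0878 in edgeR). The subunits Ring1, Rnf2 and Suz12 did not pass, nor did Kdm6b and Ets2. Cbx8 was low in every line, at 1.97, 2.46 and 1.40 CPM in TPS lines and 0.326, 0.883 and 0.626 CPM in EPS lines. Fits without one line are not reported for this list. The median of the list was -0.02, and its part in the INK4 levels was not tested.

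For each gene that passed the test, the genes with the most similar profile over the 6 lines were found among 14582 candidates, by the root mean square difference of their centred log2(CPM + 1) values. They were Rbms3 (difference 0.0989) and Bicc1 (0.146) for Ccnd2, Minpp1 (0.0640) and Rbm43 (0.0659) for Ccne1, and 2610528J11Rik (0.125) and Apobec3 (0.149) for Cdkn1b. For the INK4 genes they were Rem2 (0.103) and Chrnb4 (0.106) for Cdkn2a, Fhl2 (0.0688) and Amot (0.109) for Cdkn2b, and Trpv4 (0.0570) and Cldn5 (0.0678) for Cdkn2c. The added 1 shrinks differences of genes at a few CPM, so a low gene can match while its fold change differs. Chrnb4 stood at 2.72 CPM in TPS lines and 0.662 CPM in EPS lines, beside 54.7 and 26.0 CPM for Cdkn2a.

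Some exons overlap a gene on the other strand, and the sources used here do not say whether counting used strand. Ccnd1 shares 23.4% of its exon length with LTO1, Ccne2 17.4% with Ints8 and Ccnd3 4.11% with Bysl. LTO1 stood at 9.06 CPM in TPS lines and 8.77 CPM in EPS lines. Ints8, at 69.8 ± 8.83 and 61.0 ± 3.59 CPM, is more abundant than Ccne2, and the part of its reads in the Ccne2 value was not tested. A search of all annotated transcripts found no near-identical full copy of the transcript searched for any of the 9. For Ccnd3, the length searched, 3858 bases, is that of the retained-intron transcript Ccnd3-206. How much of a protein-coding Ccnd3 transcript is copied was not tested. Apart from genes that overlap the 9, the closest match was the processed pseudogene Ccnd3-ps, 96.6% identical over 10.8% of this retained-intron Ccnd3 transcript.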

How the data were processed

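RNA from 6 mouse cell lines was sequenced in 12 libraries prepared with oligo(dT) selection. The values deposited by the authors are read counts per gene, as the methods of the study describe and as whole numbers with unequal library totals show. The authors' processing notes name fastp 0.19.7, STAR 2.7.3a and build mm10; the counting tool, annotation release and use of strand are not given in the sources used here. Of 55401 gene identifiers, 55141 matched GENCODE M21, which gave symbols and lengths.

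Technical replicates were summed per line. Genes were kept by filterByExpr (minimum count 10, minimum total 15), which left 17468, scaled by TMM and tested with edgeR 4.0.16 in R 4.3.3, all 6 lines in one fit without covariates, with Benjamini-Hochberg adjustment at 0.05. Intervals are 95%. DESeq2 1.42.0 (which tested 21582 genes), other scalings, no filter, 12 separate libraries, single technical replicates, a replicate block and fits without each line were the alternatives. Transcript copies were searched with blastn 2.17.0. The scripts were tested on simulated counts.

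All 9 genes are reported. Genes of the other G1 and E2F target lists are named where they passed the threshold or were extreme in their list, marker and regulator genes where a result is set beside them, and for each called gene the 2 most similar profiles with a mean of at least 1 CPM (pseudocount 1). Other genes, among them Cdk4, Cdk6, Cdkn1a and Cdkn2d, were named after their values were seen. The 9 genes and the lists were chosen with earlier results of these data known. Technical replicates of a line differed by 2.68 to 24.3 times the counting noise (chi-square per degree of freedom), so none was taken as a repeat deposit of the same library.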

Additional observations from a re-analysis of the deposited data

How the results depend on the processing

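Across the 15 alternatives, 9 genes gave 135 values: 96 kept direction and side of the threshold, 32 lost significance, 5 gained it and 2 reversed. Both reversals were Ccnd1, to 0.062 with library size as the only scale, where the median of all genes moved to 0.14, and to 0.12 without EPS line 3 (-0.26 to 0.12 over the fits without one line). Of the 9 genes, 5 rose in the reported fit, 7 with 12 libraries (26.2% of all genes), 6 with library size alone (17.1%) and with technical replicate 1 alone (12.8%), 3 without the filter (10.1%) and with technical replicate 2 alone (12.9%), and 1 to 2 in fits without one line (8.98 to 12.5%). Without TPS line 1 and EPS line 1 it was 2 higher and 0 lower. Taking each of the 12 libraries as a sample, 4 of the 32 other G1 genes were called higher and 10 lower. Of all genes, 26.2% were higher and 23.3% lower in that fit. Of the other G1 genes, 1 fell with library size alone (4.26% of all genes). It was also 1 with technical replicate 2 alone (6.6%) and without TPS line 1 and EPS line 1 (2.39%). Fits without one line gave 0 to 1 higher and 1 lower, beside 8.98 to 12.5% and 2.74 to 5.76% of all genes. Ccne2 passed the threshold with DESeq2, library size alone, 12 libraries and technical replicate 1 alone, and Ccnd3 with 12 libraries. The fit of 12 libraries counts technical replicates of a line as independent samples, so its p-values are too small. Over all genes, the calls ranged from 1631 without TPS line 1 and EPS line 1 (9.25% of genes tested) to 7677 with 12 libraries (49.5%), against 3791 (21.7%). The causes were not tested, beyond the fewer samples in the fits without a line.

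With line number as a replicate block, 2 of the 9 genes rose (Ccnd2 and Cdkn2b, beside 9.81% of all genes), Cdkn1b fell (4.13%), and of the other G1 genes 1 rose (Cdkn1c) and 1 fell (Cdk2); Ccne1, Cdkn2a and Cdkn2c had an edgeR adjusted p of 0.0609, 0.0523 and 0.0938 with log2 fold changes of 0.50, 1.05 and 1.23, and 2435 genes were called in all. Same-numbered TPS and EPS lines did not deviate together (correlations 0.024, -0.116 and 0.0423), so the numbers were not taken to pair the lines.

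With 3 lines per group, the fits without one line rest on 5 lines. Cdkn2c has 32 to 120 reads per line, the fewest of the 9 genes. With the longest protein-coding transcript as the length, shares in TPS lines also moved by more than the spread between lines for Cdkn2a (76.6%), Cdkn2b (22.1%), Ccne1 (94.3%) and Ccne2 (5.75%).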
